A study of Mus musculus with 4 samples.

Results

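The ABC multidrug efflux transporters are membrane pumps that use ATP to move drugs, drug conjugates and signalling molecules out of cells. The genes *Abcb1a*, *Abcb1b*, *Abcc1*, *Abcc4*, *Abcc5* and *Abcg2* were chosen by name and their rows were taken from both deposited tables. Their levels were known when the set was drawn up, so all values below are a description. Of these 6 genes, 5 have a row and *Abcb1a* was not analysed here. They are 5 of the 9779 genes with a value. All levels are FPKM, fragment counts normalized to transcript length and to the mapped fragments of a library, and each of the 5 genes is a single coding sequence group in the tables.

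RNA was taken from LF2 cells, a line of female mouse embryonic stem cells (ESCs) of strain 129/J, after 24 hr of treatment, with 1 library for each of 4 conditions. The PBS+DMSO cells received both vehicles. The PBS+GSK-J4 cells received 10 μM GSK-J4, an inhibitor of JmjC histone demethylases. The AA+DMSO cells received 50 μg/ml L-ascorbic acid (AA), and the AA+GSK-J4 cells received both compounds. All cells had been grown on feeder cells and then passaged without them. Each condition is 1 library from 1 line, so no difference below has a replicate and none was tested.

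Mouse P-glycoprotein, the best known of these pumps, is encoded by the pair *Abcb1a* and *Abcb1b*, and it exports a wide range of hydrophobic drugs. *Abcg2*, also called breast cancer resistance protein, exports drugs, dyes and porphyrins, and its dye export marks the side population of stem cells. The members of the C subfamily export organic anions. *Abcc1* (Mrp1) exports glutathione conjugates and oxidized glutathione, while *Abcc4* (Mrp4) and *Abcc5* (Mrp5) export cyclic nucleotides among other substrates. Drug exposure, cell stress and differentiation are known to alter the transcription of several of these genes.

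*Abcb1b* was the transporter whose transcript level differed most between the libraries, and its promoter is shown with that of its paralog as the results turn on it. The windows below run from 250 bases before the annotated start to 50 bases after it (RefSeq, GRCm38.p6, 5′ to 3′ on the strand of the gene). Capitals mark the CCAAT box (CCAAT) and the GC box (GGGCGG) on either strand. The *Abcb1b* window (chr5:8797897-8798196, plus strand) and that of its paralog *Abcb1a* (chr5:8566841-8567140, plus strand) are given first. The *Abcg2* window (chr6:58596422-58596721, plus strand) is shown for the member that was lower with GSK-J4, at the first annotated start inside its deposited locus.
Abcb1b: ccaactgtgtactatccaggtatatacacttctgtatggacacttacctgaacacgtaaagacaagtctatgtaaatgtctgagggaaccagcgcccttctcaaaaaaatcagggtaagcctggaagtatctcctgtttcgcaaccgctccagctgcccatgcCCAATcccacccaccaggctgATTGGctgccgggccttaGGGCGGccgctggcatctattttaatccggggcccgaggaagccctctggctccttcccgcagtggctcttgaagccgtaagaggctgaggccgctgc
Abcb1a: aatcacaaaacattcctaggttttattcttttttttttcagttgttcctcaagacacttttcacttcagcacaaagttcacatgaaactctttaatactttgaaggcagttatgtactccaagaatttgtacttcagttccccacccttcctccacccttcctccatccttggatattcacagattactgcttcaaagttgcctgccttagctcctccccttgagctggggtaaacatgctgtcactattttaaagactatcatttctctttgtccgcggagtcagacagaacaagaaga
Abcg2: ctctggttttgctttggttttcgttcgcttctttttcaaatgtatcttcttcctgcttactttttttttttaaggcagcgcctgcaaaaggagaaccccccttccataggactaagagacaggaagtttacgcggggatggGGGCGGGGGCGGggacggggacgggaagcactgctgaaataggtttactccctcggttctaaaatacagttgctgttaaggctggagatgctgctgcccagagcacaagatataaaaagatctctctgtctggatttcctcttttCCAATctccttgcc
The *Abcb1b* window holds 2 CCAAT boxes, which begin 87 and 66 bases before the start, the nearer one on the opposite strand. It also holds 1 GC box, beginning 48 bases before the start. The *Abcb1a* window holds neither. Its RefSeq start, 8567091, lies within the locus of *Rundc3b* (8490361 to 8622876), upstream of the GENCODE gene start of *Abcb1a* at 8660077. No window at that GENCODE start was examined, so the promoters of the 2 paralogs are not compared at like starts. Of 32851 promoter windows of this length, 37.4% hold a CCAAT box and 35.7% a GC box. The *Abcg2* window has 1 CCAAT box, 37 bases after the start, and 2 GC boxes that abut each other, 109 and 103 bases before it. A later *Abcg2* start inside the locus (chr6:58640296-58640595, not printed) has 4 GC boxes, and the start upstream of the locus has neither motif.

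GC content was 55.0% in the *Abcb1b* window and 40.3% in the *Abcb1a* window, against a median of 52.7% over all windows. The windows of *Abcc4* (72.7%, at its upstream start) and *Abcc5* (63.0%) were richer in GC. The core of the C/EBP-ATF response element (TGATGNAA), bound by ATF4, was in none of the 8 windows of the members and in 3.97% of all windows. The core of the antioxidant response element (TGACNNNGC) was in the *Abcb1a* window and in both *Abcc4* windows, and in 12.4% of all windows. The hypoxia response element core (ACGTG) was in the *Abcb1b* window, 198 bases before the start on the opposite strand. It was also in the upstream *Abcc4* window and in 19.6% of all windows. The dioxin response element core (GCGTG) was in the upstream *Abcc4* window, the later *Abcg2* window and 32.4% of all windows. These letters describe 300 bases each and say nothing of binding. *Abcc1* has no entry in the promoter table.

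*Abcb1b* lies on chromosome 5 from 8798147 to 8866315 on the plus strand (GENCODE M21, GRCm38), has 28 exons and encodes 1276 amino acids. *Abcb1a* (8660077 to 8748575) ends 49.6 kb before it on the same strand and also has 28 exons and 1276 amino acids. Of the 50-base words of the *Abcb1b* transcript, 18.0% also occur in *Abcb1a* transcripts, so part of its reads could come from either gene. No 50-base word of *Abcc1*, *Abcc4*, *Abcc5* or *Abcg2* occurs in a transcript of another gene. *Abcc1* (chromosome 16, 14361558 to 14475737) and *Abcc5* (chromosome 16, 20331303 to 20426394) lie on the plus and the minus strand. *Abcc4* lies on chromosome 14 from 118482692 to 118706219 on the minus strand, and *Abcg2* on chromosome 6 from 58584523 to 58695676 on the plus strand.

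In cells with both vehicles, *Abcc4* had the highest level of the 5 transporters, at 27.4 FPKM. *Abcc5* was at 15.3, *Abcg2* at 13.1, *Abcb1b* at 8.35 and *Abcc1* at 6.64 FPKM. These levels placed *Abcc4* at percentile 77.1 of all genes and *Abcc1* at percentile 45.1, so all of them lie in the middle and upper range of expression. The order was the same with AA and DMSO, where *Abcc4* was at 31.3, *Abcc5* at 15.8, *Abcg2* at 11.5, *Abcb1b* at 7.96 and *Abcc1* at 6.24 FPKM. Without replicates, it is not known which neighbours in this order differ beyond the spread of a condition.

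**Figure D1:**
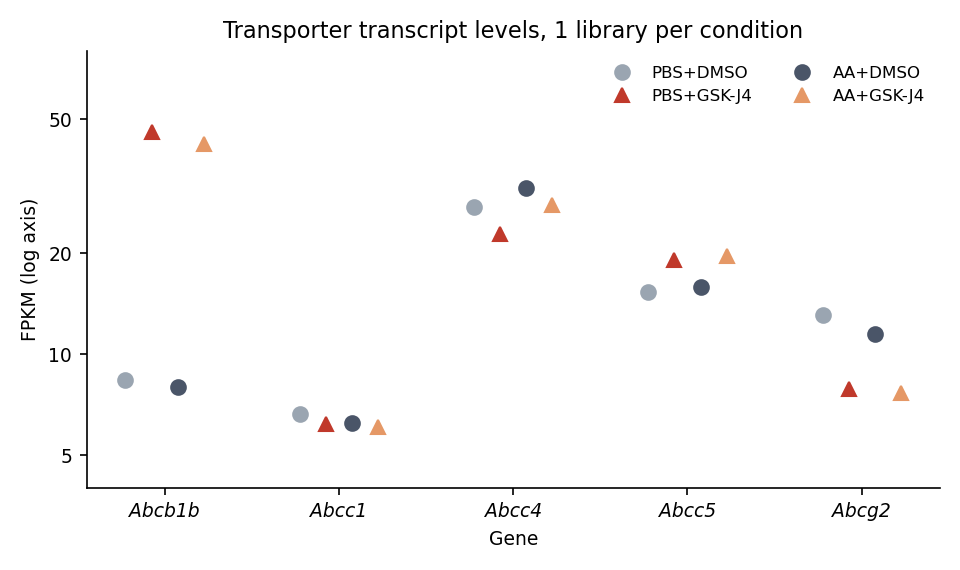
FPKM on a log axis of each transporter gene (x axis) in the 4 libraries, with circles for DMSO and triangles for GSK-J4. The triangles of *Abcb1b* sit at 45.9 and 42.2 FPKM, far above its circles at 8.35 and 7.96, while the 4 points of each other gene lie within 1.71-fold of each other.

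With GSK-J4, *Abcb1b* became the highest of the 5. In PBS it was at 8.35 FPKM with DMSO and at 45.9 with GSK-J4, and in AA it was at 7.96 and 42.2. Both GSK-J4 libraries are high, both DMSO libraries are low, and they do not overlap. The share of all genes whose libraries separate in this way was not counted, here or for the transporters below. No result is therefore drawn from the separation alone. The ratio of FPKM was 5.49 without AA and 5.31 with AA. On the log2(FPKM + 1) scale, which understates changes of weakly expressed genes, the ratios were 2.33 and 2.27. *Abcb1b* ranked 18 from the top of 9196 genes without AA and 17 of 9139 genes with AA (only genes that reached 1 FPKM in a library of the comparison are ranked). Its level moved from percentile 50.4 of all genes to percentile 89.8 without AA, and from 50.1 to 89.0 with AA. The ratio stayed above 2-fold under every scaling.

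*Abcg2* was lower in the GSK-J4 libraries under every scaling. In PBS it was at 13.1 FPKM with DMSO and at 7.85 with GSK-J4, and in AA it was at 11.5 and 7.67. Both GSK-J4 libraries again lie apart from both DMSO libraries, here below them. The log2 ratios of -0.67 and -0.52 are less than a 2-fold change, and 14.2% and 21.2% of all genes had a lower ratio. FPKM differed by -40.1% without AA and by -33.1% with AA.

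*Abcc5* was slightly higher with GSK-J4 under every scaling, at 15.3 FPKM with DMSO against 19.1 in PBS, and at 15.8 against 19.6 in AA. Its libraries with GSK-J4 lie above those with DMSO. Its log2 ratios were 0.30 and 0.29, at percentile 79.4 and 79.3 of all genes. *Abcc4* was at 27.4 FPKM with DMSO against 22.8 with GSK-J4 in PBS, and at 31.3 against 27.9 in AA. Its range in DMSO and in GSK-J4 overlaps, since AA+GSK-J4 lies above PBS+DMSO. The log2 ratios of *Abcc4* for GSK-J4 were -0.25 and -0.16, near the medians of all genes, and turned to 0.12 and 0.16 once all libraries had an equal FPKM total. *Abcc1* varied least, with 6.64 FPKM (DMSO) and 6.20 (GSK-J4) in PBS and with 6.24 and 6.09 in AA, a range of 1.09-fold. Its log2 ratios of -0.09 and -0.03 became 0.25 and 0.26 after scaling to the same total, so it has no direction that holds over the scalings.

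**Figure D2:**
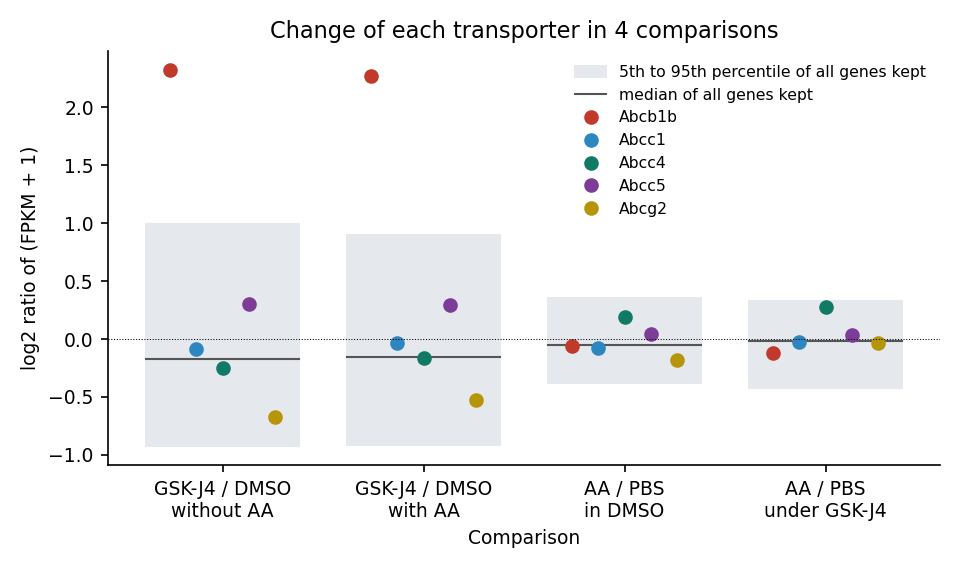
Log2 ratio of (FPKM + 1) of each transporter (coloured points) in the 4 comparisons on the x axis, with the 5th to 95th percentile of all genes as a grey box and their median as a line. *Abcb1b* lies at 2.33 and 2.27 in both GSK-J4 comparisons, above the boxes, and every other point lies inside its box.

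Counted at a 2-fold threshold, 1 of the 5 transporters was higher with GSK-J4 without AA, and 4.96% of all 9196 genes were. With AA, 1 of 5 was higher, against 4.13% of 9139 genes. No transporter was at least 2-fold lower, and 3.5% and 3.38% of all genes were. In either direction the shares of all genes were 8.46% and 7.51%. In both comparisons the transporter counted was *Abcb1b*. The median log2 ratio of the 5 transporters was -0.09 without AA and -0.03 with AA, beside -0.17 and -0.16 for all genes. Relative to these medians, *Abcb1b* differed by 2.50 and 2.43, *Abcc5* by 0.48 and 0.45, *Abcc1* by 0.09 and 0.13, *Abcc4* by -0.08 and -0.01, and *Abcg2* by -0.50 and -0.37. Of the genes past 2-fold, 58.6% were higher without AA and 55.0% with AA, and these shares were 89.4% and 86.5% after scaling to the same total.

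**Figure D3:**
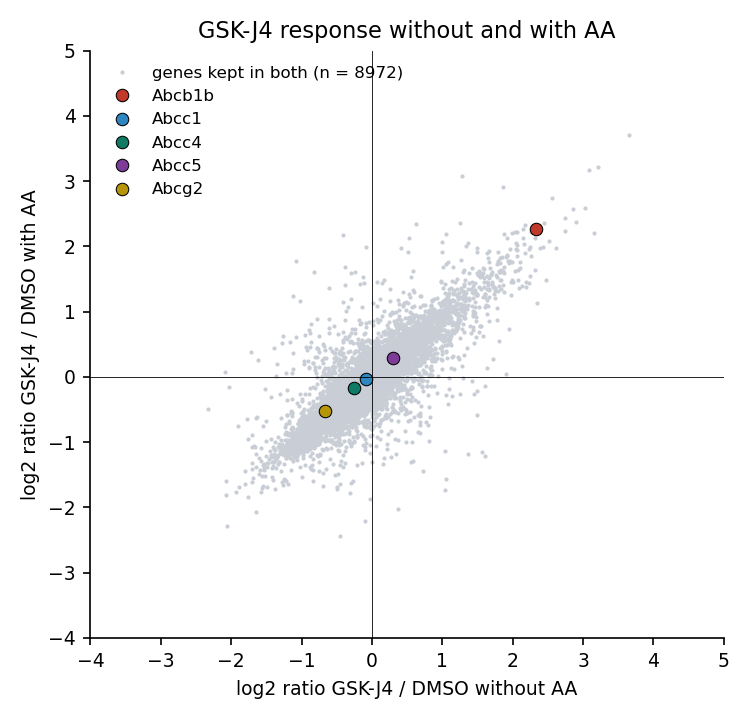
Log2 ratio of (FPKM + 1) for GSK-J4 over DMSO without AA (x axis) and with AA (y axis), with 8972 genes kept in both comparisons as grey dots and the 5 transporters as coloured points. *Abcb1b* lies at 2.33 and 2.27 near the upper right end of the cloud, and the other 4 lie within it, with *Abcg2* at -0.67 and -0.52.

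The GSK-J4 comparisons without and with AA share no library, and their values for the transporters were close. The log2 ratio with AA minus that without AA was -0.05 for *Abcb1b*, 0.06 for *Abcc1*, 0.09 for *Abcc4*, -0.01 for *Abcc5* and 0.15 for *Abcg2*. Over 8972 genes this difference ran from -0.47 at the 5th percentile to 0.41 at the 95th. All 5 transporters therefore lie inside that range. The difference could not be tested without replicates.

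With AA, the levels of the transporters differed from those in PBS by at most 21.9%. The log2 ratio of AA+DMSO to PBS+DMSO was 0.19 for *Abcc4*, 0.05 for *Abcc5*, -0.06 for *Abcb1b* (0.00 with equal totals), -0.08 for *Abcc1* and -0.18 for *Abcg2*. Under GSK-J4 the AA ratios were 0.28 for *Abcc4*, 0.04 for *Abcc5*, -0.12 for *Abcb1b*, -0.02 for *Abcc1* and -0.03 for *Abcg2*. *Abcc4* was highest of the 5 in both, at percentile 88.3 and 93.3 of all genes, and its FPKM was 14.3% and 21.9% higher with AA. None of the 5 passed 2-fold in either comparison, whereas 1.3% of all genes did so in DMSO and 1.11% under GSK-J4. At least 2-fold higher with AA were 0.565% and 0.512% of all genes, and lower were 0.735% and 0.599%. Each AA comparison shares a library with each GSK-J4 comparison.

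The summed FPKM of the 5 transporters was 70.8 with DMSO and 102 with GSK-J4 in PBS, and 72.8 and 103 in AA. Without *Abcb1b* the sums were 62.5 and 56.0 in PBS, and 64.9 and 61.2 in AA. *Abcb1b* supplied 11.8% and 10.9% of the sum in the DMSO libraries of PBS and AA, and 45.0% and 40.8% in the GSK-J4 libraries. The share of *Abcg2* was 18.5% and 15.8% in the DMSO libraries and 7.71% and 7.41% in the GSK-J4 libraries. These are shares of transcripts per length and not of protein.

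**Figure D4:**
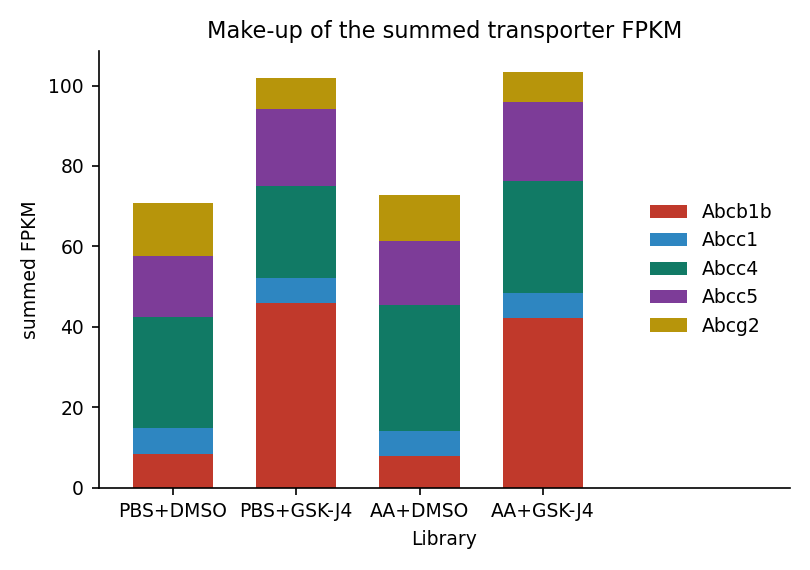
Stacked bars of FPKM for the 5 transporters in each library, starting at 0. The red part, *Abcb1b*, is 11.8% of the bar with DMSO and 45.0% with GSK-J4 in PBS, and the rest of the bars differs little, from 56.0 to 64.9 FPKM.

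The ABC superfamily also holds lipid, peptide, heme and peroxisomal transporters, and proteins of the E and F subfamilies that act in translation rather than in transport. A further 18 ABC genes have a value. With GSK-J4, 1 of these 18 was at least 2-fold higher without AA and 1 with AA, in both cases *Tap1*, which pumps peptides into the endoplasmic reticulum for antigen presentation. *Tap1* was at 1.55 FPKM with DMSO and 16.1 with GSK-J4 in PBS, and at 1.66 and 11.6 in AA, with log2 ratios of 2.74 and 2.24. None of the 18 was at least 2-fold lower. Of all genes, 4.96% without AA and 4.13% with AA were at least 2-fold higher, and 3.5% and 3.38% lower. The median log2 ratio of the 18 was 0.03 without AA and -0.14 with AA, and their lowest ratios were -0.93 and -0.87.

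Of the other B, C and G genes, 7 of the 22 listed have a value. *Abcg1*, a cholesterol exporter, had log2 ratios of 0.89 and 0.60, from 1.70 to 4.02 FPKM without AA. *Abcb10*, a mitochondrial transporter of heme-forming cells, was at -0.10 and -0.16. *Abcb6*, chosen after its values were seen, was at 3.79 FPKM with DMSO and 7.56 with GSK-J4 in PBS, and at 3.54 and 3.10 in AA, so GSK-J4 in PBS is its 1 high library. Its AA ratio under GSK-J4, -1.06, was the only one past 2-fold among all list genes in the AA comparisons. Among the A, D, E and F genes, 11 of 21 have a value and none passed 2-fold with GSK-J4. The highest were *Abca1*, a cholesterol and phospholipid exporter, at 0.52 and 0.74, and *Abcd4*, which acts in lysosomal vitamin B12 transport, at 0.84 and 0.10. The lowest were *Abce1*, a ribosome recycling factor, at -0.93 and -0.73, and *Abcf1*, a translation factor, at -0.92 and -0.87.

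**Figure D5:**
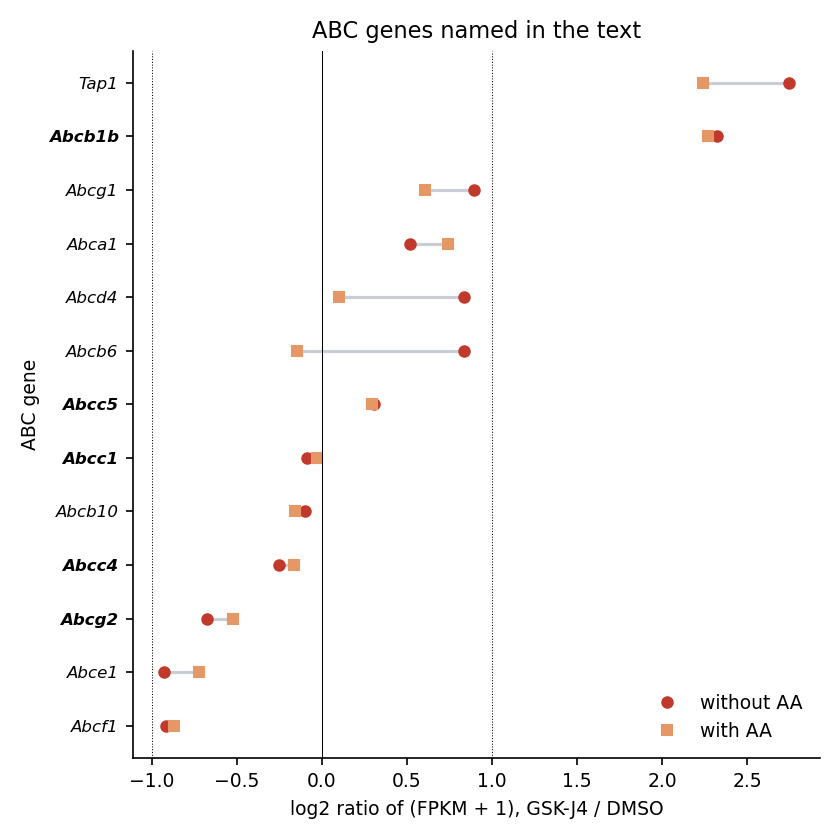
Log2 ratio of (FPKM + 1) for GSK-J4 over DMSO of the 13 ABC genes named in the text (y axis, the 5 transporters in bold and 8 others), with circles without AA, squares with AA, and dotted lines at 2-fold. *Tap1* and *Abcb1b* lie beyond the upper line in both comparisons and none of the plotted genes lies beyond the lower line.

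Efflux works together with uptake carriers and with enzymes that modify drugs. Beside each GSK-J4 count of a list below, 4.96% of all genes without AA and 4.13% with AA were at least 2-fold higher. The shares of all genes at least 2-fold lower were 3.5% and 3.38%. In the list of organic anion and cation uptake carriers, 4 of 20 genes were kept for GSK-J4 without AA and 3 with AA, and 1 was at least 2-fold higher in each. This was *Slc22a18*, an imprinted member of the cation transporter family, at 0.366 and 3.50 FPKM without AA and at 0.557 and 3.03 with AA. It reached 1 FPKM only with GSK-J4, so it could be counted only as higher. Of the list of glutathione genes, 23 of 32 were kept without AA, of which 2 were at least 2-fold higher and 1 lower, and the counts past 2-fold were the same with AA among 24 kept. The highest were *Chac1*, which degrades glutathione, with log2 ratios of 2.07 and 1.85, and *Gsto1*, a glutathione transferase, at 11.9 and 30.8 FPKM without AA and 11.2 and 28.2 with AA. The lowest were *Gstt2*, at -1.06 and -1.19 from a level of 1.14 FPKM, and *Ggct*, which acts on γ-glutamyl peptides, at -0.93 and -0.96. *Gstt2* reached 1 FPKM only with DMSO, so it could be counted only as lower. *Abcc1*, the exporter of glutathione conjugates, was at -0.09 and -0.03.

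Of the phase I and other phase II enzymes, 16 of 26 were kept in each GSK-J4 comparison, with 1 at least 2-fold higher and 1 lower in each. *Ephx1*, the microsomal epoxide hydrolase, was at 9.41 FPKM with DMSO and 43.8 with GSK-J4 in PBS, and at 9.99 and 36.2 in AA, with log2 ratios of 2.10 and 1.76. *Akr1b8*, an aldo-keto reductase, was at 8.27 and 3.63 FPKM without AA and at 9.05 and 3.79 with AA. *Srxn1*, a sulfiredoxin induced by oxidative stress, was at 0.10 and 0.39, and *Akr1b3*, aldose reductase, at -0.78 and -0.73.

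GSK-J4 is an ethyl ester that esterases cleave inside cells to the free acid. Of 19 carboxylesterases and related hydrolases, 6 were kept in each comparison and 2 were at least 2-fold higher. These were *Ces2e*, listed at 0 in both DMSO libraries and at 3.68 and 1.70 FPKM with GSK-J4, and *Ces2g*, at 0.0813 and 3.24 FPKM without AA and 0.111 and 2.06 with AA. Both reached 1 FPKM only with GSK-J4, so they could be counted only as higher. Of all genes, 4.96% were at least 2-fold higher without AA and 4.13% with AA. *Esd*, an esterase with a high level in all libraries, ran from 58.4 to 67.5 FPKM. *Bche*, butyrylcholinesterase, had log2 ratios of 0.66 and 0.26.

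Of 26 transcription factors and their partners known to act on ABC transporter genes, 19 were kept. None was at least 2-fold higher with GSK-J4 and 1 was lower in each comparison. This was *Myc*, with log2 ratios of -1.12 and -1.20. *Mycn* had log2 ratios of -0.75 and -0.86. The highest were *Foxo3*, a stress-responsive forkhead factor, at 0.94 and 0.99, and *Atf4*, the effector of the integrated stress response, at 0.69 and 0.77. The median of the 19 was -0.43 in both comparisons, beside -0.17 without AA and -0.16 with AA for all genes. Among all genes with at least 5 FPKM in either library, the medians were -0.29 and -0.26. Of the carriers of ascorbate and dehydroascorbate, 3 of 4 have a value and none passed 2-fold. *Slc23a2*, the ascorbate carrier, was at 11.5 FPKM in both DMSO libraries, and the glucose carriers *Slc2a1* and *Slc2a3*, which also take up dehydroascorbate, had AA ratios in DMSO of -0.58 and -0.22.

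The genes most like *Abcb1b* over the 4 libraries were *Ano3*, *Anxa8* and *Nudt18*, by the Euclidean distance between the log2(FPKM + 1) values after each gene's mean was subtracted. Their distances were 0.12, 0.14 and 0.16 among 8876 genes with a mean FPKM of at least 1. *Ano3*, an anoctamin membrane protein, was at 1.30 FPKM with DMSO and 11.6 with GSK-J4 in PBS, and at 1.15 and 10.0 in AA. The genes nearest to *Abcg2* were *Adat3*, *Actr6* and *Ppih*, at distances of 0.011 to 0.017. Among those nearest to *Abcc5* were *Erlec1* and *Ralb*, and those nearest to *Abcc1* were *F2r*, *Rabep1* and *Yod1*. *Caskin2* and *Serpinb6a* were nearest to *Abcc4*, and the third entry carries a date in place of a gene name. Each distance rests on 4 values, from the same libraries for every gene.

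Within 500 kb of *Abcb1b* on chromosome 5, 6 genes have a value, and none was at least 2-fold higher with GSK-J4. Of all genes, only 4.96% without AA and 4.13% with AA were. The paralog *Abcb1a* also lies in this range but was not analysed here. *Crot*, 99.7 kb beyond its end, had log2 ratios of -0.11 and -0.08, and *Dmtf1*, 253 kb away, had -0.37 and -0.21. On the other side, *Slc25a40* had -0.32 and -0.08 and *Dbf4* had -0.57 and -0.35. *Rundc3b*, the nearest with a value on that side, was at 1.36 and 1.37 FPKM without AA and at 0.751 and 0.733 with AA. *Adam22* stayed below 1 FPKM in all libraries.

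The cells carried the transcripts of ESCs in all libraries. All 9 ESC markers had an FPKM of at least 1 in each library, and their summed FPKM was 2317 with DMSO and 1390 with GSK-J4 in PBS, and 2095 and 1258 in AA. The largest parts of the sum in PBS+DMSO were *Pou5f1* at 867 and *Tdgf1* at 525 FPKM. On the FPKM as deposited, each marker was lower with GSK-J4 in PBS, and each except *Tfcp2l1* in AA. Whether the direction of each marker holds once all libraries have an equal FPKM total was not examined. *Tfcp2l1* was at 26.6 and 23.5 FPKM in PBS and at 31.8 and 32.0 in AA. Of 8 feeder fibroblast markers, 3 have a value (*Col1a1*, *Col1a2* and *Thy1*), with sums from 7.54 to 8.85 FPKM. Of 5 trophoblast markers, 2 have a value (*Eomes* and *Krt8*), with sums from 5.16 to 7.05, and of 5 primitive endoderm markers only *Sox7* has one, from 0.697 to 1.61 FPKM. None of these markers is at 0 in all libraries. The ESC marker sum moved with GSK-J4, against *Abcb1b* and with *Abcg2*, and the total FPKM of all genes moved with it, from 360621 to 275575 in PBS and from 342327 to 271205 in AA. The part of either in these differences was not tested. In bulk RNA, fewer cells of a type and less RNA per cell cannot be told apart. Read counts are not part of the tables, so depth is unknown and no counting error can be given. Steps of whole reads in the lowest values did not settle the relative depth of the libraries. For GSK-J4 against DMSO in AA the best ratio, 0.879, was tied with another at 20 coding sequence groups each, and in PBS the best ratio, 0.642, led by 19 groups to 17.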

How the data were processed

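RNA-Seq of 4 libraries of LF2 ESCs was used, with 1 library per condition. The authors removed duplicates from single-end reads, aligned with TopHat2 and computed levels with Cufflinks2, followed by CummeRbund and Genome Explorer on the Maser platform, with versions not given in the sources used here. The submitters' processing notes name mm10. The FPKM values deposited by the authors are normalized to transcript length and mapped fragments. Any scaling between libraries is not stated. The columns are headed as log10 but hold linear values. The tables also hold the authors' own fold changes and p-values, which were not used.

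The coding sequence groups of each gene were added up, and 157 of 9936 gene names with a failed estimate were left out. Log2 ratios used a pseudocount of 1 and were kept for genes that reached 1 FPKM in a library of the comparison. No test was run, and calls use 2-fold. The transporters, lists and comparisons were chosen with earlier results of these data known. Of each list, the genes with the 2 highest and 2 lowest mean GSK-J4 log2 ratios were named, and the 3 nearest genes of each transporter, except that some of these genes are not reported here. The calls were tried on simulated data whose planted changes exceeded 2-fold and lay in better expressed genes. The depth steps were tried on simulated libraries without expression change. These trials do not cover changes near 2-fold or in weakly expressed genes. The alternatives were other pseudocounts, filters on low values, scalings, a 1.5-fold threshold and the highest coding sequence group. Python 3.11.15, numpy 2.4.6, pandas 2.3.3 and matplotlib 3.10.9 were used. Promoter sequences are from RefSeq (GRCm38.p6), which held 5 of the 6 genes, and annotation is from GENCODE M21.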

Additional observations from a re-analysis of the deposited data

Results flagged for a closer look

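*Abcb6*, which transports porphyrins, had a log2 ratio for GSK-J4 of 0.84 without AA and -0.14 with AA. It was picked out because the directions differ with and without AA, and the difference was not tested. *Esd* had log2 ratios for GSK-J4 of -0.21 without AA and 0.018 with AA, also in opposite directions, and this difference was not tested either. The value of *Esd* with AA is near no change, and the medians of all genes were -0.17 without AA and -0.16 with AA. Whether the signs of these 2 genes hold under the scalings was not examined.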

How the results depend on the processing

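Each alternative kept *Abcb1b* at least 2-fold higher with GSK-J4 in both comparisons, where its log2 ratio ran from 1.93 to 2.69 without AA and, with AA, from 1.87 to 2.59. The pseudocount of 5 gave the lowest and scaling to the same total the highest of these values. At a 1.5-fold threshold 1 of the 5 transporters, *Abcg2*, was lower without AA, beside 1775 of all 9196 genes. The median log2 ratio of the 5 transporters without AA moved to 0.088 when ratios were centred on their median, 0.16 after division by the upper quartile and 0.25 after scaling to the same total. With AA these values were 0.13, 0.19 and 0.26. No other median of the transporters moved by 0.1 or more, and no other count of transporters changed. The median for AA in DMSO, -0.06, turned to 0.0047 after scaling to the same total, and that for AA under GSK-J4 stayed below zero. *Abcg2* stayed lower and *Abcc5* higher with GSK-J4 under every alternative. *Abcc1* changed sign under all 3 scalings and *Abcc4* under 2, and the ratio of *Abcb1b* for AA in DMSO moved to 0.00 after scaling to the same total. Among all genes, 456 were higher and 322 lower without AA. A pseudocount of 0.1 gave 746 and 509, a pseudocount of 5 gave 112 and 136, a minimum of 5 FPKM gave 253 and 264, scaling to the same total gave 808 and 96, and the 1.5-fold threshold gave 1063 and 1775. With AA, 377 and 309 became 662 and 493, 99 and 102, 207 and 229, 633 and 99, and 923 and 1625. For AA in DMSO, 50 and 65 became 1 and 3 with a pseudocount of 5 and 185 and 196 at 1.5-fold, and under GSK-J4 47 and 55 became 0 and 8, and 157 and 233. Replicates could not be paired because each condition has 1 library, and a fit with PBS and AA as blocks was not run. Without replicates or read counts, small differences such as those of *Abcc1* and *Abcc4* cannot be told from noise.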
